A study of Mus musculus with 4 samples.

Results

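CD8_03 is a type of T cell that the authors' deposited annotation names in tumor-draining lymph nodes of mice. It is described here in 2 groups of wildtype mice, a group fed chow with RGX-104 beginning on day 3 after tumor cells were injected and a group fed control chow throughout, with nodes taken on day 8 in both. RGX-104 activates LXR, the liver X receptors, which are nuclear receptors for oxysterols. From the digested nodes, T cells were sorted together with antigen-presenting cells (APCs) for single-cell sequencing of RNA at its 5′ end, with a second library of T cell receptor (TCR) sequences from the same cells. Each chow is represented by 1 RNA and 1 TCR library, and the sources used here do not give how many mice were pooled in each. The tumor line and the antibodies of the sort are likewise not given in the sources used here.

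The members are the cells whose annotated type is CD8_03, each tied to its barcode by its UMI total, gene count and mitochondrial share. They number 358 of the 4094 annotated T cells, 182 in the RGX-104 library and 176 in the control library. The RGX-104 library held 38480769 UMIs (unique molecular identifiers, counts of captured transcripts) over 8671 barcodes, and the control library 31530931 UMIs over 7346 barcodes. CD8_03 cells contributed 1260852 UMIs in the RGX-104 library and 1143386 UMIs in the control library. They are compared with the 2 other types that the authors named as CD8 T cells, CD8_01 with 408 cells in the RGX-104 library and 464 in the control library, and CD8_02 with 348 cells in each. Levels are in CPM: UMIs were summed over the cells of 1 type in 1 library and scaled to the same total in every type. Intervals are 95% intervals that cover counting error only. With 1 library per chow there is no replicate, so no difference between chows could be tested against the spread between mice. The types were defined from the expression of these cells, so differences between them are descriptions. The RNA libraries shared 95 barcodes; 6 CD8_03 barcodes also occurred in the other RNA library, none of them as CD8_03 there.

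CD8 T cells recognise peptides on class I molecules through an alpha-beta receptor, helped by the coreceptor CD8. In mice, some of them acquire memory traits without meeting foreign antigen. These virtual memory cells arise under cytokines of the IL-15 kind, depend on Eomes and the receptor chain encoded by Il2rb, and carry CD44 and receptors that are otherwise typical of natural killer (NK) cells. The lymph node also holds other T cells with NK receptors, among them gamma-delta T cells and CD8-negative alpha-beta cells.

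Ccl5, a chemokine kept ready as mRNA by memory CD8 cells, stood among the genes highest in CD8_03 over both other types. It stood at 4184 CPM in the RGX-104 library and 4218 CPM in the control library, against 89.9 and 59.7 CPM in CD8_01 and 56.8 and 53.6 CPM in CD8_02 of the same libraries. The ratios to the other types were between 46.5 (40.6 to 53.6) and 78.7 (64.1 to 97.7). Xcl1, a chemokine that attracts cross-presenting dendritic cells, stood at 176 CPM (RGX-104) and 149 CPM (control) in CD8_03 and at no more than 3.98 CPM in either other type.

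The same cells carried a set of lectin-like receptor genes of the NK gene complex. Klra7, a receptor of the Ly49 family, had 147 UMIs (117 CPM) in RGX-104 CD8_03 cells and 160 UMIs (139.9 CPM) in control CD8_03 cells. CD8_01 had 1 and 2 Klra7 UMIs in these libraries, and CD8_02 had 0 in both, which makes CD8_03 at least 68.4-fold (RGX-104) and at least 80.9-fold (control) higher than CD8_02 against a floor of 3 counts per library. Klre1, another inhibitory or activating receptor of the complex depending on its partner, had 78 and 75 UMIs in CD8_03 and at most 1 UMI in either other type. Klrc1 and Klrc2, which encode the NKG2A and NKG2C chains that pair with the product of Klrd1, stood at 88.8 and 46.0 CPM in the RGX-104 library and at 68.2 and 49.9 CPM in the control library. Klrk1, which encodes the activating receptor NKG2D, stood at 95.2 CPM (RGX-104) and 93.6 CPM (control), against 1.24 to 2.84 CPM in the other types. Genes of these families are close copies of each other, so the split of reads between neighbours is uncertain. On GRCm38, all 5 genes lie on chromosome 6, from Klre1 (129559365 to 129585828) through Klrk1 (129610323 to 129623903), Klrc2 (129649602 to 129660737) and Klrc1 (129666015 to 129682852) to Klra7 (130218605 to 130233322).

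Fcer1g, the signalling adaptor of Fc and NK receptors, stood at 148 CPM in RGX-104 CD8_03 cells and 139.9 CPM in control CD8_03 cells, and at 3.41 to 4.61 CPM in the other types. Tyrobp, the adaptor DAP12 used by activating NK receptors, was 6.55-fold (3.88 to 11.6) and 14.4-fold (7.32 to 31.5) above CD8_01. Further genes led by the same ranking were Ctla2a, an inhibitor of cathepsins, at 335 CPM (RGX-104) and 405 CPM (control), Gzmm, a granzyme, at 74.6 and 59.5 CPM, and Samd3 at 51.6 and 46.4 CPM. Their smallest ratio was 10.9 (8.51 to 14.2) over CD8_01, for Ctla2a in the RGX-104 library.

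**Figure D1:**
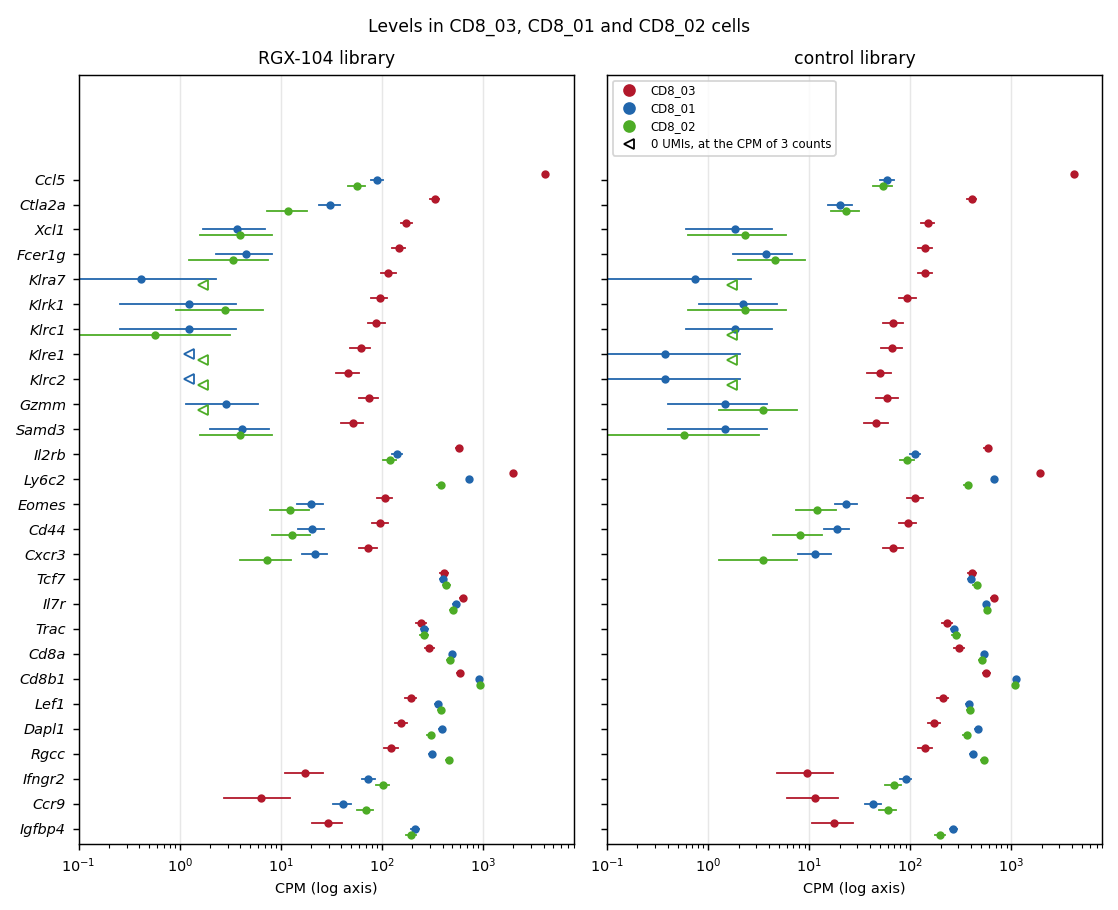
CPM (log axis) of 27 genes in CD8_03, CD8_01 and CD8_02 cells of the RGX-104 library and of the control library. Points are summed levels, bars 95% counting intervals and open triangles types with 0 UMIs, drawn at the CPM that 3 counts would give. Ccl5 at 4184 and 4218 CPM and the Klr genes lie far right in CD8_03, Tcf7 and Il7r lie close together in all types, and Igfbp4 and Ccr9 lie left in CD8_03.

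The memory genes were higher with smaller ratios. Il2rb, the chain shared by the IL-2 and IL-15 receptors, stood at 587 CPM (RGX-104) and 588 CPM (control) in CD8_03, against 142 and 112 CPM in CD8_01 and 119.9 and 93.9 CPM in CD8_02. Cd44, the adhesion receptor of antigen-experienced cells, stood at 96.0 and 95.3 CPM, 4.73-fold (3.37 to 6.73) and 5.04-fold (3.59 to 7.18) above CD8_01. Eomes, the T-box factor required for virtual memory cells in mice, stood at 108 and 112 CPM, 5.42-fold (3.88 to 7.71) and 4.79-fold (3.52 to 6.59) above CD8_01. Cxcr3, a chemokine receptor of memory and effector cells, was 9.99-fold and 19.7-fold above CD8_02. Ly6c2, a surface antigen of memory CD8 cells, stood at 2005 and 1913 CPM, against 729.9 and 669 CPM in CD8_01 and 385 and 372 CPM in CD8_02. Bcl2, a survival factor downstream of IL-7 and IL-15, differed least of these, at 1.72-fold and 1.97-fold over CD8_01.

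Of 6071 genes with at least 50 UMIs over CD8_03 and CD8_01 in each library, 200 (3.29%) were at least 1.5-fold higher and 115 (1.89%) at least 1.5-fold lower in CD8_03 in both libraries. Against CD8_02 the counts were 200 (3.75%) and 103 (1.93%) of 5329 genes. In the list of 26 memory and virtual memory genes, 19 of 24 measured members were higher than in CD8_01. Against CD8_02 these were 19 of 23, and none was lower than in either type. The list's median log2 ratio over CD8_01 was 2.11 (RGX-104) and 2.30 (control), against medians of 0.00 for all measured genes. Among the members that did not reach 1.5-fold were Itga4, an integrin chain, Id2, Klrd1 and Plac8. Of 12 NK cell genes, 7 were measured and 6 were higher than in either type, with a median log2 ratio over CD8_01 of 5.02 and 5.24. Of the 12, 2 are also in the memory list. These list counts describe the type and are no independent support. The types were defined from expression, and the lists were chosen with earlier results known. A gene could also pass the minimum of 50 UMIs through CD8_03 alone.

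The cytotoxic genes were mixed. Of 26 listed, 12 were measured against CD8_01 and 6 were higher, namely Gzmm, Nkg7, Fasl, Ccl5, Serpinb6b and Serpinb9; 5 of the 26 are also memory genes. Serpinb9, the inhibitor that shields killer cells from granzyme B, was 5.18-fold (3.46 to 7.92) and 4.28-fold (2.73 to 6.81) above CD8_01. The effector molecules themselves were scarce. Prf1, perforin, had 38 UMIs (30.1 CPM) in RGX-104 and 44 UMIs (38.5 CPM) in control CD8_03 cells, 1.02-fold (0.672 to 1.54) and 1.12-fold (0.762 to 1.61) the level of CD8_01. Gzmb had 25 and 5 UMIs, Gzma 24 and 20 UMIs, and Ifng 11 and 15 UMIs.

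Genes of the naive state divided. Of 25 measured naive genes, 7 were lower than in CD8_01, 10 lower than in CD8_02, and Itm2a was higher than in both. Igfbp4, a binding protein of insulin-like growth factors that marks naive cells, stood at 29.3 CPM (RGX-104) and 17.5 CPM (control) in CD8_03, against 215 and 268 CPM in CD8_01. Lef1, a transcription factor of naive and early T cells, was 0.531-fold (0.459 to 0.612) and 0.549-fold (0.475 to 0.633) the level of CD8_01. Ccr9, the gut-homing chemokine receptor of naive CD8 cells, had 8 and 13 UMIs in CD8_03 and 99 and 117 in CD8_01. By contrast Tcf7, which encodes the stemness factor TCF-1, stood at 416 and 412 CPM, 1.02-fold (0.918 to 1.14) and 1.03-fold (0.925 to 1.15) the level of CD8_01. Ccr7, the chemokine receptor for entry into nodes, was lower, at 0.762-fold (0.698 to 0.830) and 0.540-fold (0.494 to 0.591).

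Other groups differed less. Of 23 measured genes of TCR signalling and the immediate early response, 9 were higher than in CD8_01 and none lower, among them Nr4a1, an early target of receptor signals, at 2.15-fold (1.69 to 2.74) and 1.77-fold (1.39 to 2.25). Of 8 measured inhibitory receptor and exhaustion genes, 4 were higher, Tigit, Cd160, Nr4a2 and Ikzf2. Ikzf2, which encodes Helios, stood at 124 CPM (RGX-104) and 144 CPM (control), against 26.5 and 24.8 CPM in CD8_01. Of 25 measured genes of the interferon gamma response and class I presentation, 4 were lower than in CD8_01 (Gbp2, Gbp4, Igtp and Tgtp2) and 2 higher (Cxcl10 and Socs3), with a median log2 ratio of -0.28 (RGX-104) and -0.31 (control). Igtp, an interferon-induced GTPase, stood at 73.8 and 45.5 CPM in CD8_03, against 163 and 96.4 CPM in CD8_01. Ifngr2, a chain of the interferon gamma receptor, stood at 17.4 and 9.62 CPM, against 73.7 and 90.8 CPM. Of 21 oxidative phosphorylation genes, none reached 1.5-fold against either type.

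The markers of the name were checked cell by cell. Trac, the constant region of the TCR alpha chain, stood at 247 CPM (RGX-104) and 233 CPM (control) in CD8_03, 0.935-fold (0.814 to 1.07) and 0.854-fold (0.739 to 0.984) the level of CD8_01. Cd8a, the CD8 alpha chain, stood at 295 and 305 CPM, 0.593-fold (0.527 to 0.667) and 0.568-fold (0.504 to 0.639) the level of CD8_01. Cd8b1, the beta chain of the conventional coreceptor, was 0.651-fold (0.599 to 0.708) and 0.513-fold (0.470 to 0.558). Cd4 had 2 and 0 UMIs.

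In part of CD8_03 no CD8 transcript was captured, which does not show that a cell has none. In the type as a whole, 56 of 182 RGX-104 cells (30.8%, 24.2 to 38) and 65 of 176 control cells (36.9%, 29.8 to 44.5) had no UMI of Cd8a or Cd8b1, against 1.72% and 0.647% in CD8_01 and 1.15% and 0.862% in CD8_02. The median CD8_03 cell held 6652.5 UMIs in the RGX-104 library and 6213.5 in the control library, more than the 5587.5 and 5624.5 of CD8_01 and the 4933.5 and 4833.5 of CD8_02. The CD8_03 cells without a CD8 UMI were shallower, with medians of 5310.5 (RGX-104) and 4523 UMIs (control). With every cell thinned to 2000 UMIs, the shares without CD8 were 44.0% and 49.7% in CD8_03, 8.09% and 4.76% in CD8_01 and 9.38% and 5.54% in CD8_02. Cells of Th1_01, a type named for helper T cells, which use CD4 in place of CD8, lacked a CD8 UMI in 86.5% (RGX-104) and 93.1% (control), with median depths of 4307.5 and 4438 UMIs. Where a CD8_03 cell had CD8 transcripts, the median was 8 UMIs in each library, close to the 8 and 9 of CD8_01. The name CD8 thus holds at the transcript level for 126 (69.2%) and 111 (63.1%) of the cells, and the rest are called CD8_03 here by the annotation alone.

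The authors named every CD8_03 cell a singlet, but their deposited doublet score was higher in CD8_03 than in the other types. Its median was 0.0996 in RGX-104 and 0.0959 in control CD8_03 cells, against 0.0173 and 0.0195 in CD8_01 and 0.0139 and 0.0202 in CD8_02. Transcripts of another lineage were absent in 144 RGX-104 and 137 control CD8_03 cells. With such cells alone in every type, 163 genes were at least 1.5-fold higher than in CD8_01 and 157 than in CD8_02 in both libraries, against 200 and 200 with all cells. Without the 6% of cells with the highest Scrublet doublet scores in each library, which took out 0 RGX-104 and 5 control CD8_03 cells, the counts were 200 and 197.

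**Figure D2:**
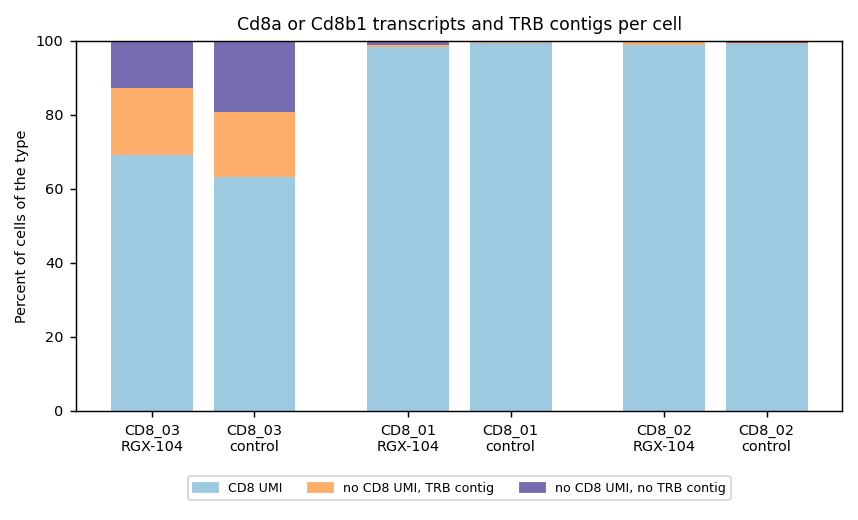
Percent of cells (vertical axis) of CD8_03, CD8_01 and CD8_02 in the RGX-104 and control libraries that had a Cd8a or Cd8b1 UMI, no such UMI but a TRB contig, or neither. In CD8_03 the cells with a CD8 UMI are 69.2% (RGX-104) and 63.1% (control), and in both other types nearly all cells have one.

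CD8_03 was therefore split by CD8 transcripts and by assembled TCR beta (TRB) contigs, a division chosen after its values were seen. Cells without a CD8 UMI but with a TRB contig numbered 33 (18.1%) in the RGX-104 library and 31 (17.6%) in the control library. Cells with neither numbered 23 (12.6%) and 34 (19.3%). Trdc, the constant region of the TCR delta chain, was found in 18 of these 23 cells (78.3%, 56.3 to 92.5) and 23 of these 34 (67.6%, 49.5 to 82.6). It was found in 3 and 4 of the cells without CD8 that had a TRB contig, and in 4 of 126 (3.17%) and 6 of 111 (5.41%) of the cells with CD8. The share with a Trdc UMI in Th1_01 was 1.01% and 1.09%. The median depths were 7205 and 7407 UMIs with CD8, 5619 and 5137 without CD8 but with a TRB contig, and 4846 and 3982 with neither, so the cells richest in Trdc were the shallowest.

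In the cells with neither, Trdc stood at 544 CPM (RGX-104) and 734 CPM (control), and the gamma chain genes Trgv2 at 138 and 319 CPM and Tcrg-C4 at 119.9 and 222 CPM. Trac stood at 101 and 104 CPM there, against 256 and 249 CPM in the cells with CD8. Cd3e, the signalling chain of every T cell receptor, stood at 553 and 823 CPM in the cells with neither and at 654 and 674 CPM in those with CD8. Klrb1c, the NK1.1 antigen, or Ncr1, the NK cell receptor NKp46, was seen in 22 (12.1%) of all RGX-104 CD8_03 cells and 21 (11.9%) of control ones. Zbtb16, the factor of invariant NKT cells, was found in 1 RGX-104 cell and 0 control cells. The authors named a separate set of gamma-delta T cells, with 37 cells in the RGX-104 library and 65 in the control library. Those cells had 0 UMIs of Klra7 and Ly6c2 and 34.6 and 26.8 CPM of Ccl5. Their Klrk1 level, 94.0 CPM (RGX-104) and 179.7 CPM (control), was close to or above that of CD8_03, and their Cd44 level, 327 and 306 CPM, was above it.

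The CD8_03 cells without CD8 carried more of the NK receptor genes than those with CD8. Of 5301 genes with enough counts, 326 (6.15%) were at least 1.5-fold higher and 116 (2.19%) at least 1.5-fold lower in the cells without CD8 in both libraries. Fcer1g stood at 424 CPM (RGX-104) and 387 CPM (control) without CD8 and at 63.3 and 52.2 CPM with CD8. Ikzf2 was 7.52-fold (5.29 to 10.8) and 3.91-fold (2.84 to 5.41) higher, Klrk1 4.54-fold (3.11 to 6.66) and 7.56-fold (4.88 to 12), and Klra1, an inhibitory Ly49 receptor, 10.8-fold (5.0 to 25.9) and 4.84-fold (2.62 to 9.19). Ccl5 stood at 8895 and 7594 CPM without CD8 and at 2730.4 and 3017 CPM with CD8. Lower without CD8 were Il6ra, the IL-6 receptor, with 1 UMI in each library, Gzmm at 0.0705-fold (0.00841 to 0.262) and 0.272-fold (0.0961 to 0.626), Dapl1 at 0.210-fold (0.107 to 0.376) and 0.335-fold (0.202 to 0.529), and Ccr7 at 0.490-fold (0.391 to 0.607) and 0.385-fold (0.296 to 0.493). Cd44 and Eomes showed intervals that included 1 in both libraries. These ratios pool the 2 sets without CD8, which differed for some genes. Klra1 stood at 143 CPM (RGX-104) and 121 CPM (control) with a TRB contig, and at 27.7 and 81.6 CPM with neither. Ccr7 stood at 201 and 206 CPM with a TRB contig, and at 544 and 282 CPM with neither. Klrk1 differed less, at 217 and 272 CPM with a TRB contig and 267 and 245 CPM with neither.

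**Figure D3:**
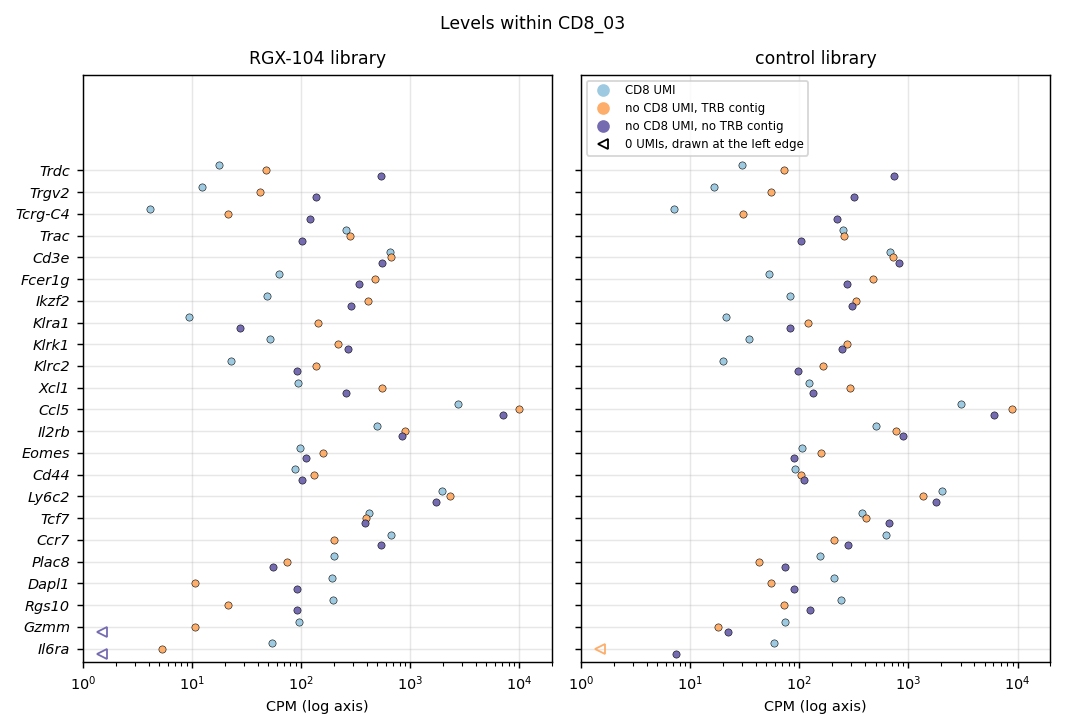
CPM (log axis) of 23 genes within CD8_03 for cells with a CD8 UMI, cells with no CD8 UMI but a TRB contig, and cells with neither, in the RGX-104 and the control library. Open triangles at the left edge have 0 UMIs. Trdc is highest in cells with neither (544 and 734 CPM), and Fcer1g and Ikzf2 are higher in both sets without CD8.

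The CD8_03 profile also held in the cells with CD8 alone. In them Ccl5 at 2730.4 CPM (RGX-104) and 3017 CPM (control), Klra7 at 82 and 96.1 CPM and Il2rb at 496 and 506 CPM were all above the levels of CD8_01 and CD8_02. With only cells that had a CD8 UMI in all 3 types, the counts of higher genes were 123 over CD8_01 and 129 over CD8_02, against 200 and 200 with all cells. The log2 ratio of Cd8a over CD8_01 became -0.38 in each library, and that of Fcer1g became 3.78 (RGX-104) and 3.81 (control), against 5.02 and 5.24 with all cells.

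Single cells of CD8_03 were uneven in Ccl5. The count per cell had a median of 12 UMIs and a maximum of 145 in the RGX-104 library, and a median of 15.5 and a maximum of 133 in the control library. No Ccl5 UMI was found in 48 RGX-104 cells (26.4%) and 39 control cells (22.2%), while 103 (56.6%) and 98 (55.7%) had 10 or more. In CD8_01, 5 and 1 cells had 10 or more, and the median was 0. Within CD8_03, the median was 6 UMIs (RGX-104) and 9 UMIs (control) in cells with CD8, 54 and 45 in cells without CD8 but with a TRB contig, and 26 and 15 in cells with neither. NK receptor genes were also not uniform. Of 7 such genes, 68 RGX-104 cells (37.4%) and 69 control cells (39.2%) had 2 or more, and 87 (47.8%) and 73 (41.5%) had none.

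**Figure D4:**
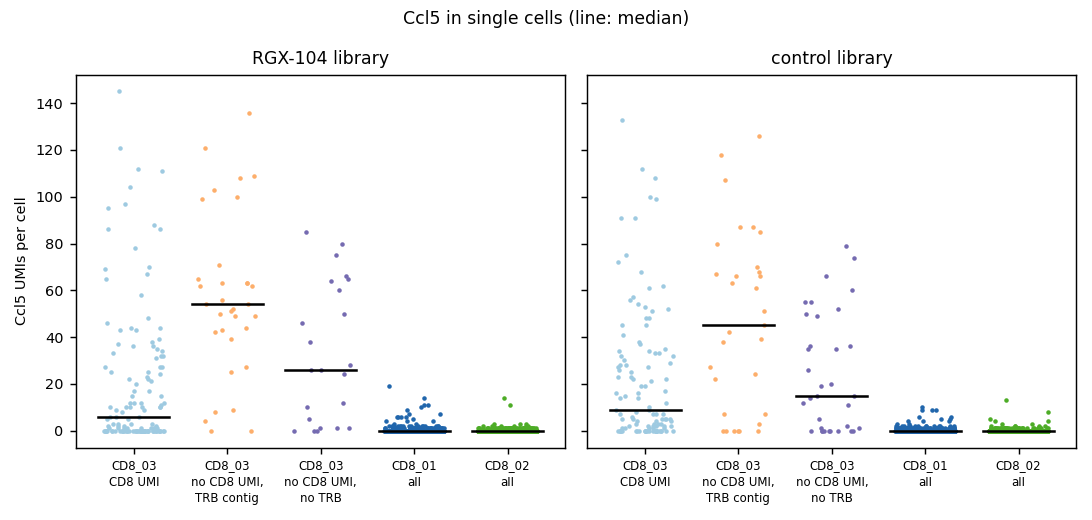
Ccl5 UMIs per cell (vertical axis) in the RGX-104 and control libraries for the 3 sets of CD8_03 cells and for all CD8_01 and CD8_02 cells; each point is a cell, sideways scatter is for display and black lines are medians. CD8_03 cells spread over 0 to 145 UMIs, with medians of 54 and 45 in cells without CD8 but with a TRB contig, while CD8_01 and CD8_02 lie at a median of 0.

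In the RGX-104 library CD8_03 made up 9.12% (7.90 to 10.5) of annotated T cells, and in the control library 8.38% (7.23 to 9.65), a ratio of 1.09 (0.879 to 1.35). Over all barcodes the direction turned, at 2.10% in the RGX-104 library and 2.40% in the control library, a ratio of 0.876 (0.708 to 1.08). Among the 3 CD8 types the shares were 19.4% and 17.8%. The authors' cell cycle phases placed 45.1% (RGX-104) and 40.3% (control) of CD8_03 in S and 13.2% and 13.1% in G2M, and 76 and 82 cells had both phase scores under 0. Cycling was not read from these calls.

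Between chows, the transcripts that stood apart in CD8_03 were those of LXR targets and of cholesterol synthesis. LXR with its RXR partner drives genes for cholesterol export and, through Srebf1, for fatty acid synthesis. Of 5028 genes with at least 50 UMIs over both libraries, 231 (4.59%) were at least 1.5-fold higher and 179 (3.56%) at least 1.5-fold lower in the RGX-104 library, and the median log2 ratio was -0.02. Of 24 LXR targets, 12 were measured, 7 were higher and none lower, with a median log2 ratio of 0.98. The medians in CD8_01 and CD8_02 were 0.89 and 1.09.

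Scd2, a desaturase of fatty acid synthesis, had 220 UMIs (174 CPM) in RGX-104 and 20 UMIs (17.5 CPM) in control CD8_03 cells, a ratio of 9.98 (6.30 to 16.7). The ratio was 17.6 (12.6 to 25.2) in CD8_01 and 15.2 (10.3 to 23.1) in CD8_02, and the ratio of the CD8_03 to the CD8_01 value was 0.568 (0.314 to 1.06). Abca1, the exporter of cholesterol to lipid-poor apolipoprotein, had 128 and 15 UMIs, a ratio of 7.74 (4.52 to 14.2), against 8.07 in CD8_01 and 11 in CD8_02. Srebf1, which switches on lipogenic genes, had 123 and 18 UMIs, a ratio of 6.20 (3.76 to 10.8). Abcg1, the exporter to mature lipoprotein, had 207 and 57 UMIs, a ratio of 3.29 (2.45 to 4.50). Fasn, fatty acid synthase, was 2.66-fold higher (1.87 to 3.85), and Mylip, the ubiquitin ligase that removes the LDL receptor, 2.35-fold (1.70 to 3.31). For these 6 genes the interval of the ratio between CD8_03 and either other type included 1. For these 6 of the 12 measured targets, no difference between the types was detectable at this depth. Nr1h2, which encodes LXR beta, had 62 and 36 UMIs, a ratio of 1.56 (1.02 to 2.42), against 1.03 (0.812 to 1.32) in CD8_01.

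Cholesterol synthesis and uptake genes were higher too, with 8 of 9 measured members past 1.5-fold and a median log2 ratio of 1.58, against 1.41 in CD8_01 and 1.78 in CD8_02. Cyp51, a demethylase of the sterol pathway, had 51 UMIs in RGX-104 and 6 UMIs in control CD8_03 cells, a ratio of 7.71 (3.31 to 22.0). Idi1, the isopentenyl diphosphate isomerase, had 63 and 12 UMIs, a ratio of 4.76 (2.54 to 9.70). Fdps, farnesyl diphosphate synthase, had 46 and 9 UMIs, a ratio of 4.63 (2.24 to 10.8). Hmgcs1, which makes the precursor of mevalonate, was 3.08-fold higher (1.71 to 5.90), and Insig1, the sterol sensor that retains SREBP in the membrane, 2.99-fold (1.87 to 4.93). Srebf2, the master factor of the pathway, had 120 and 40 UMIs, a ratio of 2.72 (1.89 to 3.99).

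Most LXR targets named above were higher with RGX-104 both in cells with and in cells without a CD8 UMI. Scd2 was 10.2-fold higher with RGX-104 (5.90 to 19.1) in cells with a CD8 UMI and 9.59-fold (4.15 to 27.2) in cells without. Abca1 was 7.96-fold (4.14 to 17.2) and 7.47-fold (2.93 to 24.4) higher in these sets. Mylip was 3.19-fold (2.08 to 5.03) higher in cells with a CD8 UMI and 1.39-fold (0.796 to 2.45) in cells without. Srebf2 differed between these sets, a difference that was not tested, with 104 UMIs in RGX-104 and 21 UMIs in control cells with CD8, a ratio of 4.33 (2.69 to 7.30), and 16 and 19 UMIs without CD8, a ratio of 0.850 (0.409 to 1.75).

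In the sum of all its cells, several genes that define CD8_03 were nearly level between chows. Ccl5 had a ratio of 0.992 (0.954 to 1.03), Il2rb 0.999 (0.898 to 1.11), Cd44 1.01 (0.771 to 1.32), Eomes 0.964 (0.751 to 1.24) and Klra7 0.833 (0.661 to 1.05). The Ccl5 ratio was 0.905 (0.857 to 0.956) in cells with a CD8 UMI and 1.17 (1.11 to 1.24) in cells without. For Klra7 these were 0.854 (0.618 to 1.18) and 0.869 (0.619 to 1.22). Xcl1 stood at 93.4 CPM (RGX-104) and 123 CPM (control) with CD8, and at 444 and 220 CPM without. Differences between the sets were not tested. Of 26 measured memory genes none was higher, 2 were lower (Tbx21 and Itgb1), and the median log2 ratio was -0.02. Itgb1, the integrin beta-1 chain, had 146 UMIs with RGX-104 and 200 UMIs with control chow, a ratio of 0.662 (0.531 to 0.824). Tbx21, which encodes the effector factor T-bet, had 24 and 35 UMIs, a ratio of 0.622 (0.354 to 1.08). Tcf7 had a ratio of 1.01 (0.889 to 1.15).

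Of 11 measured proliferation genes 2 were past 1.5-fold, Stmn1 at 1.63 (1.03 to 2.64) and Mcm2 at 1.64 (0.939 to 2.94). Of 20 measured type I interferon genes, 1 was higher and none lower, close to the 4.59% of all genes. Iigp1, a GTPase of the interferon response, had 45 UMIs in RGX-104 and 5 UMIs in control CD8_03 cells, a ratio of 8.16 (3.25 to 26.3), against 4.30 (3.02 to 6.26) in CD8_01 and 4.93 (3.06 to 8.29) in CD8_02, and a single cell gave 20% of them in each library. Of 24 measured genes of the interferon gamma response and class I presentation, 3 were higher, Iigp1, Gbp4 and Igtp, and the list's median log2 ratio was 0.11. Ccl4, a chemokine of activated CD8 cells, had 66 and 17 UMIs, a ratio of 3.52 (2.04 to 6.40). A single cell gave 25.8% of the Ccl4 UMIs with RGX-104 and 23.5% with control chow, and in cells with a CD8 UMI alone the ratio was 1.97 (1.07 to 3.80).

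Among the lower genes Lgals1, which encodes galectin-1 and accompanies activation and memory, had 217 UMIs (172 CPM) in RGX-104 and 367 UMIs (321 CPM) in control CD8_03 cells, a ratio of 0.536 (0.451 to 0.636). It was 0.734 (0.622 to 0.865) in CD8_01 and 0.774 (0.607 to 0.985) in CD8_02, and the CD8_03 value was 0.730 times (0.575 to 0.928) and 0.693 times (0.514 to 0.936) these. Within CD8_03 the Lgals1 ratio was 0.538 in cells with CD8 and 0.527 in cells without. Bbc3, the pro-apoptotic protein PUMA, had 36 and 76 UMIs, a ratio of 0.430 (0.281 to 0.647). Sox4, a transcription factor, had 20 and 52 UMIs, a ratio of 0.349 (0.197 to 0.594). In cells with a CD8 UMI it had 8 and 9 UMIs, a ratio of 0.778 (0.261 to 2.27). In cells without, Sox4 had 12 and 43 UMIs, a ratio of 0.282 (0.135 to 0.544). For Sox4, 1 cell gave 25% of the RGX-104 and 38.5% of the control UMIs. Without cells that carry transcripts of another lineage its log2 ratio was 0.18. The remaining lower genes of the ranking were Coro2a, Gtf3c6, Ckap5, Rgs19, Hilpda, Stoml2, Mplkip, Dusp2 and Pbdc1, with ratios between 0.392 and 0.625.

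Several genes had another chow ratio in CD8_03 than in CD8_01, CD8_02 or both, with exact conditional intervals of that difference, or a normal approximation on the log scale for the most abundant genes (Ccl5, Ccr7 and Cd8b1). Ccl5 itself was 1.51 (1.22 to 1.86) in CD8_01, against which the CD8_03 ratio was 0.658 times as large (0.535 to 0.810). In CD8_02 it was 1.06 (0.791 to 1.42), close to that of CD8_03. In CD8_01, 5 RGX-104 cells and 1 control cell held 10 or more Ccl5 UMIs, while 79.7% and 82.1% of cells held none. The interval takes UMIs as independent, and how far these few cells carry the difference was not tested. Ccr7 had a ratio of 1.12 (1.0 to 1.25) in CD8_03, against 0.795 (0.749 to 0.844) in CD8_01 and 0.835 (0.779 to 0.894) in CD8_02, so that CD8_03 was 1.41 times (1.25 to 1.59) and 1.34 times (1.18 to 1.53) the ratio of these types. Cd8b1 had a ratio of 1.05 (0.942 to 1.17), against 0.825 and 0.865. Jund, an AP-1 subunit, had a ratio of 0.821 (0.757 to 0.890), against 0.661 and 0.655, and Cd69, the early activation antigen that holds cells in nodes, one of 0.827 (0.706 to 0.970), against 0.651 and 0.523. Rgs19, a regulator of G protein signals, had a ratio of 0.494 (0.332 to 0.724), against 0.867 and 1.09. These compare libraries, not mice. The log2 ratio of Ccr7 in CD8_03 was 0.16 with all cells, 0.10 in cells with a CD8 UMI and -0.05 in cells with both cycle scores under 0.

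Of 5 measured gamma-delta receptor genes, 3 were at least 1.5-fold lower with RGX-104 and none higher, against 3.56% lower among all measured genes. Trdc had 85 UMIs with RGX-104 and 136 with control chow, a ratio of 0.567 (0.427 to 0.749). Trgv2 had 35 and 66 UMIs, a ratio of 0.481 (0.310 to 0.735). Tcrg-C1 and Tcrg-C2 were not among the 3. Tcrg-C2 had 29 and 28 UMIs in cells without CD8, and 12 and 11 in cells with CD8. The cells with neither CD8 nor a TRB contig were 12.6% with RGX-104 and 19.3% with control chow, with overlapping intervals (8.18 to 18.4 and 13.8 to 25.9). A Trdc UMI was found in 25 of 182 CD8_03 cells (13.7%, 9.09 to 19.6) with RGX-104 and 33 of 176 (18.8%, 13.3 to 25.3) with control chow. In the cells with neither, Trdc had 59 UMIs over 23 RGX-104 cells and 99 over 34 control cells. Trgv2 had 15 and 43 UMIs there. How much the number of such cells and their RNA per cell each contribute was not tested. Transcripts of other lineages also differed in all types. Cd74 and H2-Aa, class II presentation genes of APCs, had ratios of 1.65 (1.22 to 2.24) and 2.84 (1.56 to 5.47) in CD8_03, and 2.40 and 2.32 in CD8_01. The summed level of 20 myeloid and dendritic genes, 5 of them at 0, was 257 CPM in RGX-104 and 196 CPM in control CD8_03 cells, and in CD8_03 cells without transcripts of another lineage 186 genes were higher and 165 lower with RGX-104, with median log2 ratios of 1.1 for LXR targets and 1.4 for cholesterol genes.

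Receptors of alpha-beta T cells were read by their contigs. In CD8_03, 90 RGX-104 cells and 82 control cells had both a TCR alpha (TRA) and a TRB contig, and 38 (20.9%, 15.2 to 27.5) and 46 (26.1%, 19.8 to 33.3) had none, against 14.7% and 9.70% in CD8_01. Most receptors were seen once. Among paired RGX-104 cells there were 87 clonotypes, 3 of them with 2 cells, so that 6.67% (2.49 to 13.9) of cells shared a clonotype. All 82 paired control cells differed (0%, up to 4.4). At 82 cells the RGX-104 library would be expected to hold 79.5 clonotypes. Among cells with both chains, no CD8_03 clonotype was found in another type or in the other library. By the CDR3 of the TRB chain alone, a stretch described below, 2 RGX-104 and 1 control CD8_03 cells shared theirs with another type. In the authors' deposited table, 41 of 144 RGX-104 cells (28.5%) and 27 of 130 control cells (20.8%) had a clone frequency over 1, but 34 and 26 of these had only 1 chain.

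The CDR3 is the stretch of the receptor where gene segments are joined and which touches the peptide. The sequences of the 3 repeated clonotypes are shown because these receptors were seen in more than 1 CD8_03 cell. Each is read from the contigs of the RGX-104 library, 5′ to 3′, with capitals for letters not shared with most distinct CDR3s of the same V or J gene.
TRAV19 with TRAJ48: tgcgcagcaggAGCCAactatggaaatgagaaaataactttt
TRBV3 with TRBJ2-3: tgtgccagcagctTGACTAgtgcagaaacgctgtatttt
TRAV7D-2 with TRAJ9: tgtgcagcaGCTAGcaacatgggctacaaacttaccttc
TRBV15 with TRBJ2-4: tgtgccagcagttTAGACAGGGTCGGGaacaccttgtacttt
TRAV7D-4 with TRAJ26: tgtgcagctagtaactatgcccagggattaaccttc
TRBV5 with TRBJ2-7: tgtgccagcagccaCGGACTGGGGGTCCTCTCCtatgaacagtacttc
TRA genes lie on chromosome 14 and the TRB genes on chromosome 6. Both cells of the TRBV3 clonotype had CD8 transcripts and 0 Ccl5 UMIs. Both cells of the TRBV15 clonotype had no CD8 UMI and 8 and 9 Ccl5 UMIs. Both cells of the TRBV5 clonotype had CD8 transcripts and 10 Ccl5 UMIs each. Its alpha chain holds no such letter, and its beta chain holds 19.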

How the data were processed

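Each deposited matrix holds raw UMI counts, from Cell Ranger 5.0.0 according to its header, per the file headers. Processing notes of the submitters name mm10 and Seurat 5.0.3. Contig tables hold counts of UMIs per assembled receptor chain. The authors' annotation gives type, mitochondrial percent and cell cycle scores (a unitless score the authors computed) and clone frequency counts, without barcodes; the deposited clone proportion, a fraction of cells, was not used. Each of 5825 annotated cells matched 1 barcode, and deposited CDR3s equalled the matched contigs in all 1664 RGX-104 and 1834 control T cells that had them. UMIs were summed per type and library (Python 3.11.15, scipy 1.17.1) and scaled to CPM; ratios carry exact conditional binomial intervals, CPM exact Poisson and shares Clopper-Pearson intervals. A gene was measured with at least 50 UMIs over the groups compared, or 20 within CD8_03. With 1 library per chow no p-value was computed. Named genes are the 12 extremes either way by the interval bound nearest to 1, at no less than 20 CPM, plus list members with large folds. Genes discussed besides these were chosen after their values were seen. A clonotype is V, J and CDR3 nucleotides of both chains. No doublet call was made beyond the authors', who name all members singlets; Scrublet (scanpy 1.11.5) scores served an alternative. Ratios were checked on simulated Poisson counts without spread between cells, so that check does not cover such spread. Gene positions are RefSeq's for GRCm38. Members and lists were chosen with earlier results of these data known. Some genes that meet the naming rule are not reported here.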

Additional observations from a re-analysis of the deposited data

How the results depend on the processing

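No paired analysis was possible because each chow has 1 library. Of 2469 list medians and named gene values under the alternatives, 2337 stayed within their tolerance, 129 moved and 3 turned direction. The tolerance was counting error for single genes. For list medians it was an interval from the spread between the list's members. Among those that turned, Pclaf over CD8_01 had a log2 ratio of 0.16 (RGX-104) with cells thinned to 2000 UMIs. It had one of 0.63 (control) in cells with both cycle scores under 0. These rest on 8 and 2 UMIs in CD8_03. Sox4 had a log2 ratio of 0.18, as given above. The causes were not tested. The medians of LXR targets and cholesterol genes stayed within their tolerance under every alternative that gave one. With a minimum of 200 UMIs neither list gave a median. The cholesterol list also gave none with thinned cells or with cells whose cycle scores were both under 0. Counts of genes past the fold, by contrast, follow the minimum and the fold. With minimums of 20 and 200 UMIs, a fold of 2 and thinned cells, the genes higher than in CD8_01 numbered 340, 66, 86 and 100, those lower 234, 23, 32 and 39; higher than in CD8_02 347, 52, 87 and 96, lower 234, 24, 25 and 38; higher with RGX-104 619, 11, 37 and 72, lower 563, 9, 20 and 87. In cells with both cycle scores under 0, 99 were higher and 45 lower than in CD8_02, and 120 were higher with RGX-104. In cells with a CD8 UMI, an alternative added after seeing the data, 123 and 129 were higher than in CD8_01 and CD8_02. Sets with fewer cells also let fewer genes reach 50 UMIs, and shares of measured genes were not computed for them. Of all barcodes, the CD8_03 share had a ratio of 0.876 between chows. The authors' deposited clone frequency put 28.5% (RGX-104) and 20.8% (control) of cells in repeated clones. Scaling by TMM (edgeR 4.0.16), median-of-ratios or partial totals left the median chow log2 ratio of all genes between -0.00 and 0.02, against -0.02. The number of cells per library limits precision, and genes under 50 UMIs were not compared.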

Other observations

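Cells with much Ccl5 were also present outside the annotation. Among barcodes that the authors did not annotate, 312 of 5727 in the RGX-104 library (5.45%, 4.87 to 6.07) and 239 of 4465 in the control library (5.35%, 4.71 to 6.05) had 10 or more Ccl5 UMIs. Of these, 131 RGX-104 and 74 control barcodes had a UMI of Cd3e, a chain of the T cell receptor complex, and 100 and 53 had a UMI of Cd8a or Cd8b1. Cd79a, a chain of the B cell receptor, was present in 51 and 34 of them. Their median depth was 6429.5 and 5152 UMIs, and the reason they were left out of the annotation is not given in the sources used here.

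The receptor segments of CD8_03 spread over many genes. TRBV29 was used by 11.8% of RGX-104 and 5.65% of control CD8_03 cells with a TRB contig, against 8.31% and 6.6% in CD8_01, and TRAV7D-2 by 8.89% and 3.41% of those with a TRA contig, against 1.79% and 2.17%. These genes were chosen after their shares were seen. The CD8_03 cells with a TRA contig numbered 90 (RGX-104) and 88 (control), and those with a TRB contig 144 and 124. The RGX-104 cells with TRAV7D-2 include the 2 cells of the repeated clonotype shown above. Differences in these shares were not tested.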
